A study of Mus musculus with 2 samples.

Results

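Alveolar macrophages (AMs) were picked from the single cell RNA sequencing (scRNA-seq) of lungs by the genes they carried, which gave 240 cells in the control media (CM) library and 302 in the tumor conditioned media (TCM) library, 542 of the 15695 cells that passed the filters. A droplet was taken when it held at least 500 unique molecular identifiers (UMIs, each standing for 1 captured RNA molecule), at least 200 genes and at most 10% mitochondrial UMIs. It then needed at least 4 UMIs in all of Ear1, Plet1, Atp6v0d2, Abcg1 and Fabp1, with at least 2 of the 5 genes seen, and at most 1 UMI in all of Cdh5, Cd79a, Cd3e, Epcam and Col1a2, which mark endothelial, B, T, epithelial and stromal cells. The levels of these 10 genes chose the cells and are no finding. Both libraries came from lungs of female BALB/c mice of 9-10 weeks that received intravenous injections for 3 weeks, with control media in CM and with media conditioned by 4T1 breast tumors in TCM. The comparison asks how cells of the lung differ once tumor secreted factors have reached it without tumor cells. Each condition was 1 library, the number of mice behind a library is not given in the sources used here, and the mouse, the batch and the treatment cannot be told apart. No test between conditions was therefore made. Every interval below is a 95% interval for the counting of cells or molecules in these 2 libraries. It says nothing of the spread between mice. Intervals of levels and log2 ratios treat each UMI as independent, so they also leave out the spread between cells. They are too narrow where few cells hold most UMIs of a gene.

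AMs live on the air side of the alveolus, where they take up and break down surfactant lipid, inhaled particles and dying cells. They settle in the lung around birth under GM-CSF and TGF-beta, which act through the lipid-sensing nuclear receptor PPAR-gamma, and they renew themselves largely by division in place. Interstitial macrophages and monocytes, the nearest cells in the tissue, lack the surfactant-handling program and carry complement C1q or Ly6c2 instead.

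The label was checked with genes the rule had not used. Chil3, a chitinase-like lectin of AMs, had a UMI in 90.4% of CM and 94.4% of TCM cells, and Ear2, a secreted ribonuclease, in 94.2% and 95.7%. Ear2 is near identical in sequence to the rule gene Ear1, so it is not an independent check. The mannose receptor gene Mrc1 was seen in 81.2% and 86.8%, the integrin gene Itgax (CD11c) in 60.8% and 69.9%, and Siglecf in 37.9% and 40.4%. Not every gene tied to AMs was seen in most of the cells. The lipid droplet gene Cidec had a UMI in 101 of 240 CM and 169 of 302 TCM cells. The keratin gene Krt79 had one in 61 and 126 cells, and the scavenger receptor gene Marco in only 24 and 30. Cells were then thinned to 1000 UMIs each, and 10 CM and 3 TCM AMs too shallow for this were dropped. Chil3 was now seen in 66.5% and 69.2% of AMs and Siglecf in 13.9% and 11.7%. T cells thinned alike, which should lack these genes and show the free RNA of the suspension, had either gene in under 1% of cells. C1qa, of interstitial macrophages, had a UMI in only 0.833% of CM and 1.32% of TCM AMs, and Ly6c2, of classical monocytes, in 3.33% and 4.64%. Over whole lists, at least 1 UMI of 12 monocyte genes was in 120 CM and 174 TCM AMs, of 12 interstitial macrophage genes in 29 and 53, and of 10 neutrophil genes in 86 and 222.

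**Figure D1:**
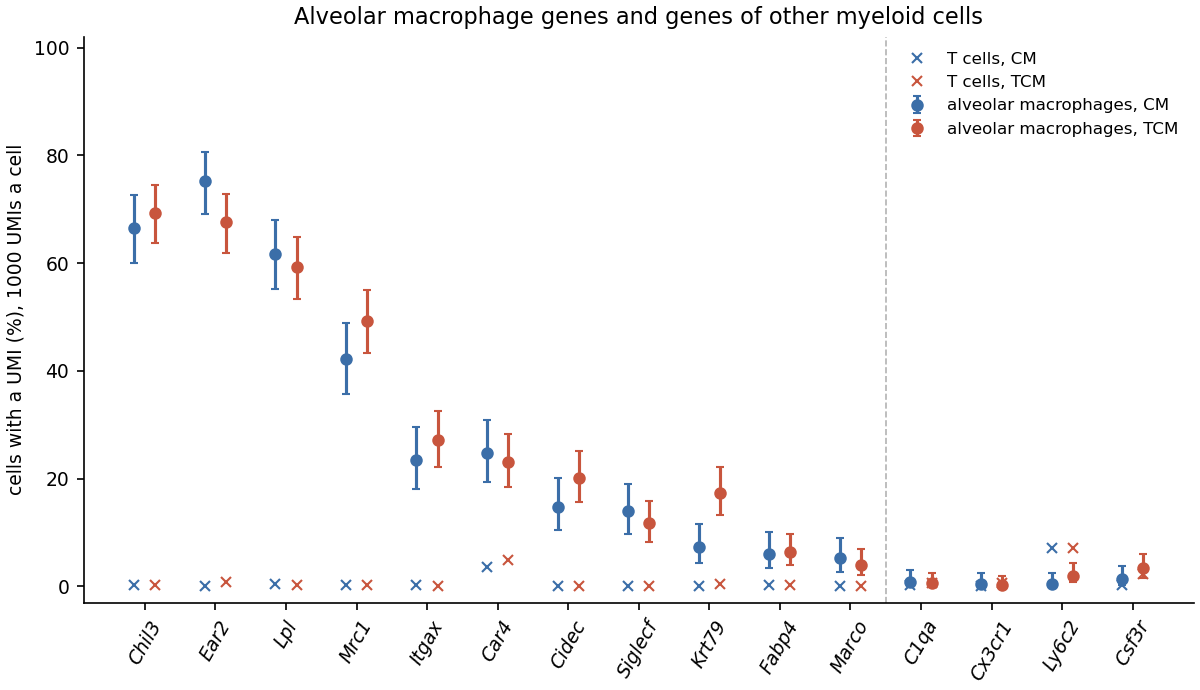
Share of cells with a UMI (%) of each gene on the x axis after thinning to 1000 UMIs a cell. Circles are AMs with 95% exact binomial intervals, crosses are T cells, blue is CM and red is TCM. Chil3 was seen in 66.5% of CM and 69.2% of TCM AMs, and the genes to the right of the dashed line, of other myeloid cells, lay near 0 in AMs.

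Ear2 and the rule gene Ear1 belong to a family of near-identical ribonuclease genes on chromosome 14. Start regions of the pair are shown because they carry that likeness: 250 bases before and 50 after the RefSeq start (GRCm38.p6), 5′ to 3′ on the gene's strand, at chr14:43819590-43819889 (minus strand) for Ear1 and chr14:44102404-44102703 (plus strand) for Ear2. The Ear1 window lies 55878 bases from the start that GENCODE gives the gene. Capitals mark CCAAT, the CCAAT box. 
Ear1: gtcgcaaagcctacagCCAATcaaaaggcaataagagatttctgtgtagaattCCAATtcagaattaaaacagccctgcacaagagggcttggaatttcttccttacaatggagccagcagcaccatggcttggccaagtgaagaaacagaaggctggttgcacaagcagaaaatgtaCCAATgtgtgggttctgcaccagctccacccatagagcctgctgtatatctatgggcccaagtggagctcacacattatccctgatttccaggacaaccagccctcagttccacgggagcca
Ear2: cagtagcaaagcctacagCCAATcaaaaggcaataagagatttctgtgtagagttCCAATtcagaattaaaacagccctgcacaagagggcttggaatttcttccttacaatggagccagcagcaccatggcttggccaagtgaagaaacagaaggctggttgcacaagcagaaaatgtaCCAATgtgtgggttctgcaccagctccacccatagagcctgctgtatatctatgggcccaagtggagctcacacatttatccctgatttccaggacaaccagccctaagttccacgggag
The windows matched at 294 of 297 aligned bases (99.0%), with CCAAT in the same 3 places, and the longest transcripts of the 2 genes at 690 of 713 (96.8%). UMIs could therefore have been split between them by the counting, and each one's level is uncertain. CCAAT stood on either strand in 37.4% of the 32807 promoter windows of this length. Ear2 was at 158 CP100k (UMIs of the gene per 100000 UMIs summed over the cells) in CM and 156 in TCM.

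Median depth was near equal, at 4320 UMIs and 1768 genes a cell in CM and 4356.5 UMIs and 1728.5 genes in TCM, out of 1184269 and 1433742 UMIs in all AMs. The 2 whole libraries held 31944151 and 36648719 UMIs. The mitochondrial share was 1.77% in CM and 2.43% in TCM AMs at the median, against 1.89% in both over all cells. Of all cell barcodes, 93 occurred in both libraries, none of them in an AM. From the hemoglobin, club cell and other RNA that AMs do not make, about 123 UMIs a cell in CM (2.50%) and 216 in TCM (4.55%) were estimated to be free RNA.

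Some TCM droplets carried many UMIs of another cell type as well. Of the 10 neutrophil genes listed, 12 TCM droplets carried between 10 and 1068 UMIs, and no CM droplet reached 10. A further TCM droplet held 1056 UMIs of Sftpc, the surfactant protein of alveolar type II (AT2) cells, and another 51 UMIs of the C1q genes. Together these 14 mixed droplets were 14 of 302 TCM cells and 0 of 240 CM cells. The cut looked at neutrophil genes, Sftpc and C1q only, so values without the mixed droplets leave CM as it was. Of 10 fibroblast genes, 9 CM and 0 TCM cells held at least 10 UMIs, with maxima of 87 and 6, and these cells stayed in. For 10 AT2 genes this held for 5 CM and 19 TCM cells, and for 10 endothelial genes for 3 and 2. The 14 mixed droplets were kept where the rule put them. Values without them, a cut chosen after the data were seen, stand beside the counts and genes they move. A doublet caller marked 0 CM and 2 TCM cells of all types and so had not worked.

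AMs made up 3.00% of the cells that passed in CM (interval 2.64 to 3.40) and 3.92% in TCM (3.5 to 4.38), a ratio of 1.30 (1.1 to 1.54), or 1.24 (1.05 to 1.47) without the mixed droplets. The ratio rested on the denominator. Of cells with a UMI of Ptprc, the common leukocyte gene, AMs were 165 of 2374 in CM (6.95%) and 218 of 2996 in TCM (7.28%), a ratio of 1.05 (0.861 to 1.27), an interval that holds 1. It also moved with the rule's limit: with a marker sum of at least 8 it was 1.55. At the median, a CM cell held 15 UMIs of the rule genes together and a TCM cell 18, and 57 CM cells (23.8%) against 28 TCM cells (9.27%) held only 4 to 7. Those just inside the limit, with 4 or 5, numbered 29 in CM and 15 in TCM and carried Chil3 at 104 and 86.1 CP100k. Those just outside it, with 2 or 3, numbered 79 and 38 and carried Chil3 at 46.7 and 23.6 CP100k. A further 41 CM and 31 TCM droplets had the markers but were set aside for their UMIs of other lineages.

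To compare the RNA of the 2 sets of AMs, UMIs were summed per library and a gene was called when its CP100k differed more than 1.5-fold with a counting interval of the log2 ratio that leaves out 0. Of 3498 genes with at least 100 UMIs over both libraries, 163 were called higher in TCM (4.66%) and 37 lower (1.06%). Only 117 of the 163 and 26 of the 37 stood at or above their free RNA level in the library where they were higher. The percentages used below count all calls. The median log2 ratio was 0.07, with 2129 genes higher and 1369 lower, and centring on that median gave 108 higher and 54 lower. Without the mixed droplets 169 and 36 genes were called, 142 and 32 of them shared with the first set. By a rule on the size of the ratio, 12 genes were taken each way, among genes that in the library where they were higher stood at or above their level in its free RNA. In the other library Zmiz1, Tppp3, Clec4e and Cxcl3 lay below that level, so they passed through the library where they are high. They are taken below with the gene lists they belong to.

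**Figure D2:**
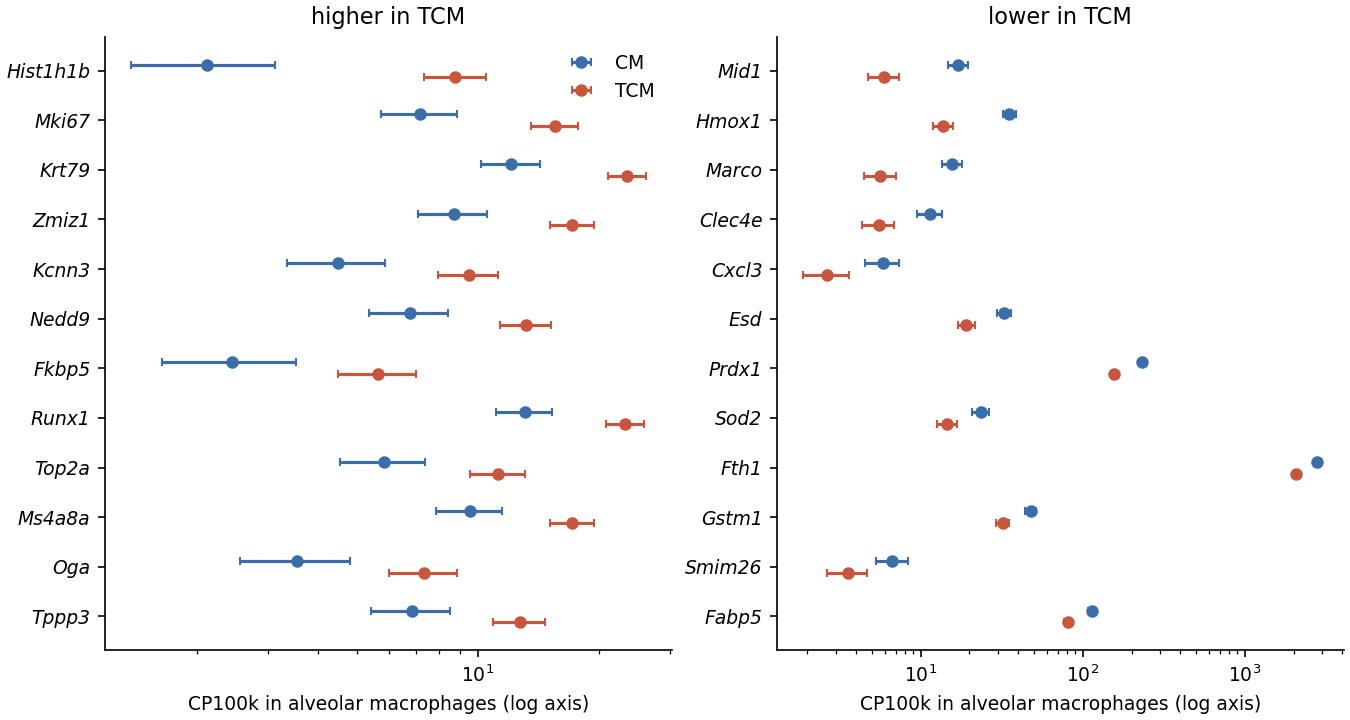
Level (CP100k, log axis) of the 12 genes highest and the 12 lowest in TCM by the bound of the log2 ratio nearest to 0, in AMs of CM (blue) and TCM (red), with 95% counting intervals. Mki67 was at 7.18 in CM and 15.6 in TCM, and Mid1 at 17.1 and 5.93.

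Among the higher genes, Krt79, Kcnn3 and Ms4a8a had almost no RNA in T cells or in free RNA of the same libraries. Krt79 (chr15:101929332-101940324), a type II keratin, had 143 UMIs in CM (12.1 CP100k) and 337 in TCM (23.5 CP100k), a log2 ratio of 0.96 (0.67 to 1.25). It was seen in 25.4% of CM and 41.7% of TCM cells, and in 7.39% and 17.4% after thinning, against 0% and 0.431% of T cells. Over the alternatives its log2 ratio ran from 0.84 to 1.84, always above 0. Kcnn3 (chr3:89520164-89675132), a calcium-activated potassium channel, had 53 and 136 UMIs (4.48 and 9.49 CP100k), a log2 ratio of 1.08 (0.62 to 1.57), with 0 UMIs in T cells of either library. Krt19, a type I keratin that epithelia also make, was at 21 and 32 CP100k (log2 0.61, interval 0.38 to 0.83). Ms4a8a, a membrane-spanning protein of the CD20 family, had 113 and 246 UMIs (9.54 and 17.2 CP100k; log2 0.85, interval 0.52 to 1.18) and none in T cells.

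The rest of the identity genes differed little. Of 21 identity genes with enough UMIs, 3 were called higher (Krt79, Krt19 and Kcnn3) and 1 lower (Marco), against 4.66% and 1.06% of all genes. The list's median log2 ratio was 0.13 against 0.07 over all genes. Chil3 was at 169 CP100k in CM and 157 in TCM (log2 -0.11, interval -0.20 to -0.02). Cd9, a tetraspanin, was at 301 and 256 (log2 -0.23, interval -0.30 to -0.16). The summed level of the list was 1072 CP100k in CM and 1079 in TCM. The 5 rule genes, given only as a description, summed to 383 and 442 CP100k, from 80.5 and 85.7 for Ear1 to 55.3 and 75.7 for Fabp1.

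The 12 genes of the GM-CSF and TGF-beta axis with enough UMIs had log2 ratios above 0, and none was called. Their median log2 ratio was 0.14 against 0.07 over all genes, of which 5.72% were called, and the lowest, 0.029, lay below that median. Pparg itself had 99 and 145 UMIs, 8.36 and 10.1 CP100k, and its log2 ratio of 0.27 had an interval (-0.10 to 0.66) that holds 0. Csf2rb, the signalling chain of the GM-CSF receptor, was at 53.5 and 58.0 (log2 0.12, interval -0.03 to 0.27). Cebpb, a transcription factor of mature macrophages, was at 164 and 177 (log2 0.11, interval 0.02 to 0.20).

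Genes of dividing cells were higher in TCM. Hist1h1b, a linker histone made in S phase, had 25 and 126 UMIs, 2.11 and 8.79 CP100k, a log2 ratio of 2.06 (1.43 to 2.74). Mki67 (chr7:135689784-135716361), which coats mitotic chromosomes, had 85 and 223 UMIs, 7.18 and 15.6 CP100k, a log2 ratio of 1.12 (0.75 to 1.49). Top2a, the DNA topoisomerase that untangles sister chromatids, was at 5.83 and 11.2 CP100k (log2 0.95, interval 0.53 to 1.38). Over all 3498 genes 2129 were higher, 4.66% were called higher and 1.06% lower, and the median log2 ratio was 0.07. Of 16 proliferation genes with enough UMIs, 15 were higher, 8 were called higher and none lower, with a median log2 ratio of 0.59. The 8 were Mki67, Top2a, Cdk1, Birc5, Cenpf, Tpx2, Pclaf and Stmn1, and Prc1 (0.65) joined them without the mixed droplets. H2afz and Tubb5, which resting cells also make, were at 123 and 129 and at 38.8 and 52.1 CP100k and were not called.

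The start regions of Mki67 and Top2a are shown because members that stood together in the dividing cells carried the same short motifs there. Both are RefSeq windows of GRCm38.p6 on the minus strand, chr7:135716330-135716629 for Mki67 and chr11:99024140-99024439 for Top2a. Capitals mark TTTGAA (the cell cycle homology region) and CCAAT, or their reverse complements, TTCAAA and ATTGG.
Mki67: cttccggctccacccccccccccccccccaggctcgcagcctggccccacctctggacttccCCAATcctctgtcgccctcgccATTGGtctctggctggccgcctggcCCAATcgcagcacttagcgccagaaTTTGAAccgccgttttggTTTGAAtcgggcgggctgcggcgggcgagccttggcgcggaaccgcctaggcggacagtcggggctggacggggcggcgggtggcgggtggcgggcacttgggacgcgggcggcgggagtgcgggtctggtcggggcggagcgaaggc
Top2a: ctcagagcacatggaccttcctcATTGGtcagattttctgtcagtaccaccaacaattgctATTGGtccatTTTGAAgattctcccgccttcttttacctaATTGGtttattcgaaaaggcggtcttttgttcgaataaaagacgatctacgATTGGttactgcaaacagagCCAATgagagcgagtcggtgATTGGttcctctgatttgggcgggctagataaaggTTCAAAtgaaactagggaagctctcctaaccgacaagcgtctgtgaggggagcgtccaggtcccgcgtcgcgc
Each window held TTTGAA in 2 places, counting both strands, beside several CCAAT boxes. Over all 32807 windows TTTGAA was in 17.9%. Of the 24 genes taken by size 20 had a window, of which 3 held TTTGAA and 12 CCAAT. A match is a stretch of letters and was not tested as a site.

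Division was concentrated in few cells. With 16 mitosis genes summed, a cut set after the data were seen, 15 of 240 CM AMs (6.25%, interval 3.54 to 10.1) and 25 of 302 TCM AMs (8.28%, interval 5.43 to 12) held at least 5 UMIs. The ratio of these shares was 1.32 (0.714 to 2.46), an interval that holds 1. With at least 20 UMIs the counts were 10 cells (4.17%) and 22 cells (7.28%), a ratio of 1.75 (0.844 to 3.62). After thinning, 5.65% of CM and 8.03% of TCM AMs had at least 2 such UMIs, against 1.34% and 1.72% of T cells. The shares were higher in TCM at each cut, and both ratios had intervals that hold 1. With the mixed droplets out, of the Mki67 UMIs, 74 of 85 in CM and 212 of 223 in TCM lay in these cells, at 57.4 and 116 CP100k. Outside them Mki67 was at 1.04 CP100k in CM and 0.931 in TCM. With the mixed droplets kept, its log2 ratio over AMs below the cut was -0.25 and the median of the proliferation list -0.06, values that the cut itself, made on these genes, bears on.

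The remaining higher genes by size were regulators and enzymes. Runx1 (chr16:92601466-92826149), a transcription factor of blood cell development, had 155 and 333 UMIs, 13.1 and 23.2 CP100k, a log2 ratio of 0.83 (0.55 to 1.11). Zmiz1 (chr14:25459185-25666743), a SUMO-ligase-like transcriptional coactivator, had 103 and 246 UMIs, 8.70 and 17.2 CP100k, a log2 ratio of 0.98 (0.64 to 1.33), and was at 8.75 and 14.2 CP100k in free RNA. Nedd9, an adhesion scaffold, was at 6.76 and 13.2 (log2 0.96, interval 0.58 to 1.36). Fkbp5, a co-chaperone of the glucocorticoid receptor that the receptor induces, had 29 and 81 UMIs, 2.45 and 5.65 CP100k (log2 1.21, interval 0.58 to 1.87). Oga, which removes O-GlcNAc from proteins, was at 3.55 and 7.32 CP100k (log2 1.05, interval 0.52 to 1.60). Tppp3, a tubulin-binding protein abundant in ciliated cells, was at 6.84 and 12.7 (log2 0.89, interval 0.51 to 1.29), and at 12.3 and 9.51 in free RNA. After thinning to 1000 UMIs, Runx1 (0.57) and Oga (0.47) lay inside the limit.

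Genes that handle heme, iron and oxidants were among the lower ones. Hmox1 (chr8:75093621-75100589), heme oxygenase, which frees iron from heme, had 418 and 198 UMIs, 35.3 and 13.8 CP100k, a log2 ratio of -1.35 (-1.61 to -1.11). Prdx1 (chr4:116685544-116700822), a peroxide-reducing peroxiredoxin, had 2758 and 2220 UMIs, 233 and 155 CP100k, a log2 ratio of -0.59 (-0.67 to -0.51). Sod2, the mitochondrial superoxide dismutase, was at 23.6 and 14.6 CP100k (log2 -0.69, interval -0.96 to -0.43). Esd, an esterase of formaldehyde detoxification, was at 32.6 and 19.1 (log2 -0.77, interval -1.0 to -0.54). Fth1, the ferritin heavy chain that stores iron, was among the most abundant RNAs of the cells, with 33087 and 29592 UMIs, 2794 and 2064 CP100k. Its log2 ratio of -0.44 (-0.46 to -0.41) lay inside the 1.5-fold limit, as did those of Gstm1, a glutathione transferase (-0.57), and Fabp5, a fatty acid carrier (-0.49). With each cell weighted equally in place of each UMI, Prdx1 (-0.40), Sod2 (-0.44) and Esd (-0.39) lay inside the limit and Hmox1 was at -0.86. Of 14 oxidant and iron genes with enough UMIs, 3 were called lower (Hmox1, Prdx1 and Sod2), none higher, and 9 were lower, with a median log2 ratio of -0.12. Over all 3498 genes 1.06% were called lower and 4.66% higher, 1369 were lower, and the median was 0.07. Ftl1, the ferritin light chain, had 20833 and 22789 UMIs and a log2 ratio of -0.15 (-0.17 to -0.12).

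The start region of Prdx1 is shown for a stretch in it that is known from oxidant-response genes. It is the RefSeq window chr4:116685349-116685648 of GRCm38.p6 on the plus strand. Capitals mark a match to TGACNNNGC, the core of the antioxidant response element, read on the reverse strand, which overlaps TGAGTCA, the AP-1 site.
Prdx1: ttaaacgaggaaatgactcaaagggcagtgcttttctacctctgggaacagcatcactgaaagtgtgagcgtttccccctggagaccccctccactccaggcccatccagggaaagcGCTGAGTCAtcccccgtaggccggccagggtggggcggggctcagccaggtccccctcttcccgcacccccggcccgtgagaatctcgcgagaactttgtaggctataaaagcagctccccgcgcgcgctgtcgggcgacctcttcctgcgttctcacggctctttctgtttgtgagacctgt
TGACNNNGC was in 12.4% of all windows and TGAGTCA in 5.21%. Among the 20 windows of genes taken by size, Prdx1 and Mid1 held TGACNNNGC. Hmox1, Fabp5, Hist1h1b and Tppp3 had no entry.

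Much of the Hmox1 RNA came from a handful of AMs. With the mixed droplets out, 7 of 240 CM cells with at least 5 UMIs held 330 of 418 Hmox1 UMIs (78.9%), the highest with 83. In TCM, 6 of 288 cells held 83 UMIs (48.5%), the highest with 29. Hmox1 was seen at all in 28.8% of CM and 25.5% of TCM AMs, so the shares of cells were near and the amounts in the top cells were not. The CM cells rich in Hmox1 also carried Fth1 at 8874 CP100k against 2395 in the other CM cells, Prdx1 at 1045 against 180 and Esd at 254 against 18.1, and had Ear2 at 45.3 against 166. The rich TCM cells carried Fth1 at 4912 against 1933, Prdx1 at 451 against 145 and Ear2 at 49.4 against 161. Other identity genes went both ways. In CM, Chil3 was at 235 against 165, Cd9 at 465 against 290 and Krt79 at 1.37 against 12.8. In TCM, Chil3 was at 116 against 162, Cd9 at 284 against 258 and Krt79 at 4.30 against 24.1. The cells rich in Hmox1 were deeper than the others, at medians of 9364 UMIs against 4199 (CM) and 8220.5 against 4261 (TCM).

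Without these cells, a cut set after the data were seen, the ratios lay nearer to 0. Hmox1 then had a log2 ratio of -0.25 (-0.69 to 0.20) and Esd of -0.17 (-0.45 to 0.12), both with intervals that hold 0. Prdx1 was at -0.31 (-0.40 to -0.22) and Fth1 at -0.31 (-0.33 to -0.28), inside the 1.5-fold limit. Sod2 was at -0.63, Gstm1 at -0.46 and Fabp5 at -0.46, close to their values over all AMs. The value of Hmox1 is set by the cut, which was made on it, and is a description. Of the other genes called, Esd, Prdx1 and Clec4e (-0.56) were no longer past 1.5-fold without these cells, and Sod2 was.

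**Figure D3:**
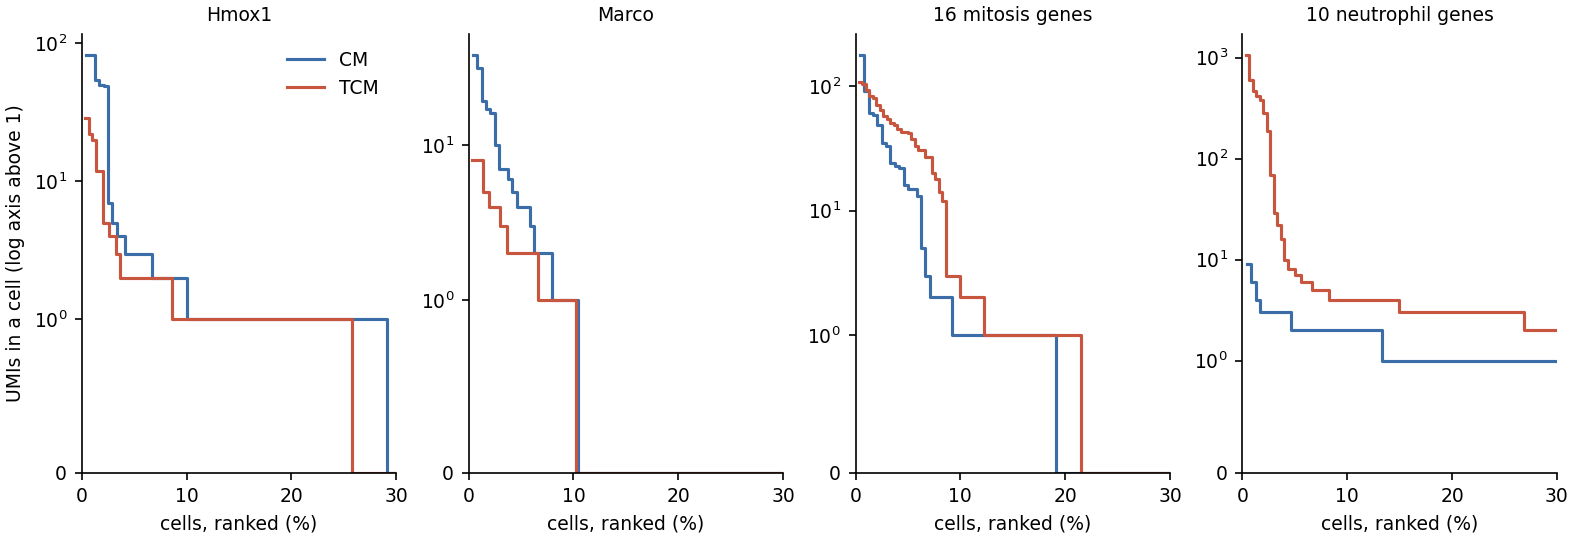
UMIs in each AM (log axis above 1) against the cells ranked from highest to lowest within their library (% of cells), for Hmox1, Marco, the sum of 16 mitosis genes and the sum of 10 neutrophil genes. CM is blue and TCM red. Hmox1 reached 83 UMIs in a CM cell and 29 in a TCM cell, and neutrophil UMIs reached 1068 in TCM.

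The other lower genes took part in uptake and inflammation, apart from Mid1 and Smim26. Marco (chr1:120474538-120505024), a scavenger receptor for particles and bacteria, had 185 and 81 UMIs, 15.6 and 5.65 CP100k, a log2 ratio of -1.47 (-1.86 to -1.08). It too was held by few cells, seen in 10.0% of CM and 9.93% of TCM AMs. With the mixed droplets out, 14 of 240 CM and 9 of 288 TCM cells held 3 or more UMIs. Of these CM cells, 2 were also rich in Hmox1, and without such cells the log2 ratio of Marco was -0.93 (-1.38 to -0.50). Clec4e (Mincle), a receptor for damaged cells and mycobacterial lipid, was at 11.4 and 5.51 CP100k (log2 -1.05, interval -1.47 to -0.64), with 43.0% of its CM UMIs in the 7 cells rich in Hmox1, and Cxcl3, a neutrophil-attracting chemokine, at 5.83 and 2.65 (log2 -1.14, interval -1.75 to -0.54). Both were higher in the free RNA of TCM, at 15.3 CP100k for Clec4e and 5.34 for Cxcl3, than in TCM AMs. Mid1 (chrX:169685199-170005736), a ubiquitin ligase bound to microtubules, had 202 and 85 UMIs, 17.1 and 5.93 CP100k (log2 -1.52, interval -1.91 to -1.15), and was seen in 51.2% of CM and 16.6% of TCM cells. Smim26, a small membrane protein, was at 6.67 and 3.56 CP100k (log2 -0.91, interval -1.44 to -0.38). With each cell weighted equally, Clec4e (-0.51) lay inside the limit and Marco was at -0.81.

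The same genes were set beside 4 other kinds of cell chosen by their own markers: 105 and 112 interstitial macrophages, 199 and 408 monocytes, 683 and 530 T cells and 712 and 353 B cells in CM and TCM. Mid1 was lower in TCM in all of them, with log2 ratios of -1.06, -1.19, -1.42 and -2.25 in that order, and its difference from AMs had intervals that hold 0. Fth1 stood the other way. It was 0.01 in interstitial macrophages, 0.16 in monocytes, 0.32 in T cells and 0.25 in B cells, and the difference of AMs from each was -0.45, -0.59, -0.76 and -0.68, with every interval leaving out 0. Prdx1 and Esd also differed from all 4, by -0.36 to -0.76 and -0.81 to -0.91. Hmox1 was at 0.33 in interstitial macrophages and 0.49 in monocytes, a difference of -1.68 and -1.84. In CM, the 7 cells rich in Hmox1 held 78.9% of its UMIs, 47.9% of those of Esd, 27.6% of Prdx1 and 19.5% of Fth1. Without such cells and the mixed droplets, the AM ratios were -0.25 (Hmox1), -0.17 (Esd), -0.31 (Prdx1) and -0.31 (Fth1). The differences from the other kinds of cell were not taken again without them.

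Among the higher genes, Zmiz1, Runx1 and Oga differed from all 4 kinds of cell with intervals that leave out 0. Fkbp5 was higher in interstitial macrophages (log2 1.28) and monocytes (0.97) as in AMs, and at -0.07 in T cells. Mki67 was at -0.87 in interstitial macrophages, -2.46 in monocytes and 0.85 in T cells, and AMs did not differ from T cells beyond counting error (0.27, interval -0.38 to 0.92).

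**Figure D4:**
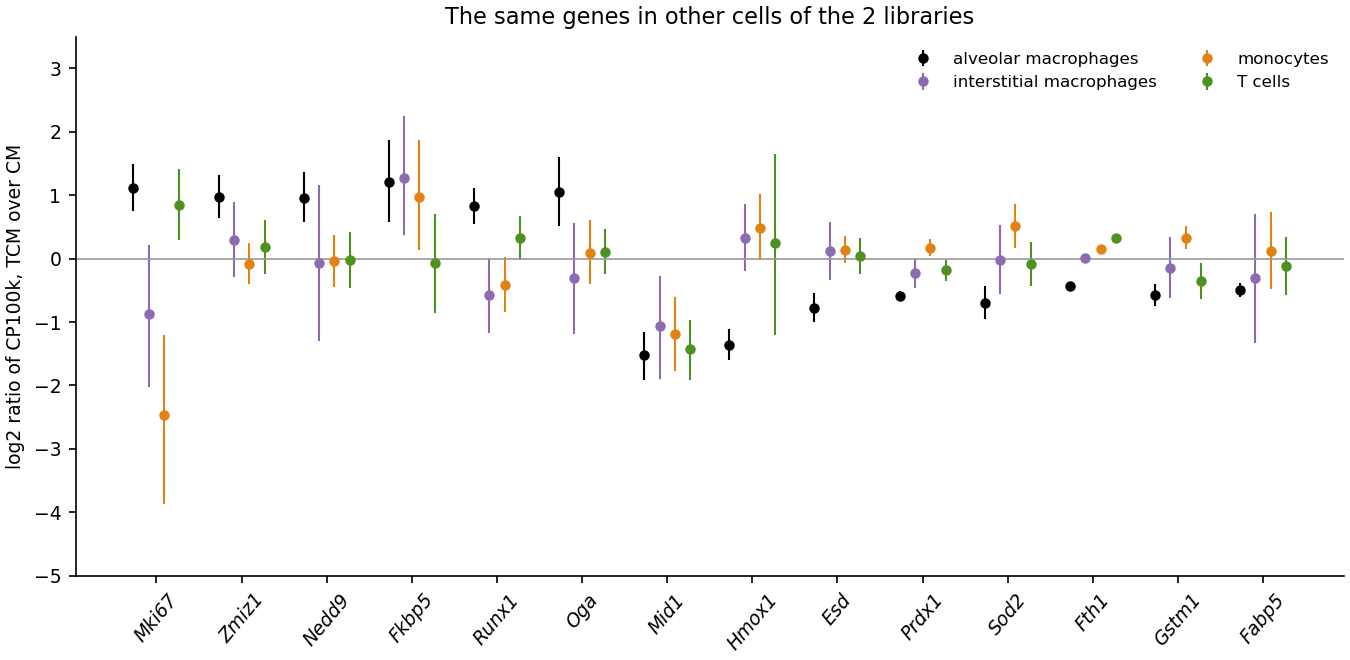
Log2 ratio of CP100k, TCM over CM, with 95% counting intervals, for a selection of the genes taken by size. Colors are AMs (black), interstitial macrophages (purple), monocytes (orange) and T cells (green). Outside AMs, a point is drawn only with at least 20 UMIs in that kind of cell. Other genes taken by size had enough UMIs in some of these cells and are not drawn, among them Smim26, Hist1h1b, Top2a, Tppp3, Clec4e and Cxcl3. B cells are not drawn. Mid1 lay below 0 in all, and Fth1 lay below 0 in AMs only, at -0.44.

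Genes of lipid handling and digestion are read against the 5.72% called of all genes. Of 13 lipid uptake and storage genes, 1 was called higher, Dgat1, which makes triglyceride (7.18 and 11.5 CP100k; log2 0.68, interval 0.30 to 1.08), none lower, and the median log2 ratio was 0.04. Plin2, which coats lipid droplets, had 1883 and 2591 UMIs, 159 and 181 CP100k (log2 0.18, interval 0.10 to 0.27), and Lpl, lipoprotein lipase, 116 and 115 (-0.01, interval -0.12 to 0.09). Cidec, a lipid droplet protein, was at 15.1 and 22.1 CP100k, a log2 ratio of 0.55 (0.28 to 0.82) inside the limit, and was seen in 42.1% and 56.0% of cells. Of 10 cholesterol efflux genes none was called, with a median of 0.11. Of 5 cholesterol synthesis genes Mvd was called higher (4.14 and 6.97 CP100k; log2 0.75), with a list median of -0.09. Of 4 fatty acid synthesis and 10 fatty acid oxidation genes none was called, at medians of 0.22 and 0.02.

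None of 25 lysosome genes was called, against 5.72% of all genes, and their median was 0.03 against 0.07. Ctsd, a cathepsin, was at 361 and 394 CP100k (log2 0.13), Psap, which activates lipid hydrolases, at 348 and 380 (0.13), and Ctsl at 44.4 and 32 (-0.47). Of 15 phagocytic and scavenger receptors, Mertk, which binds dying cells (4.56 and 7.39 CP100k; log2 0.70), and the Fc receptor gene Fcgr4 (3.21 and 5.02; 0.65) were called higher and Marco lower, at a median of 0.17. Without the mixed droplets Cd300a (0.60) was called higher as well.

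Inflammatory genes gave a few calls both ways. They are read against the 4.66% called higher and 1.06% lower of all genes, and the all-gene median of 0.07. Of 9 cytokine and chemokine genes, Il1b was called higher (21.3 and 32.5 CP100k; log2 0.61) and Cxcl3, described above, lower. Without the mixed droplets the log2 ratio of Il1b was 0.02, and none of the 9 was called higher and 2 lower, Cxcl3 and Cxcl2 (-0.64). Ccl6, the most abundant chemokine RNA of the list, was at 672 and 692 CP100k (log2 0.04). Of 11 pattern recognition genes, Irak1, a kinase below Toll-like receptors, was called higher (3.80 and 6.21; 0.71), and Tnip1, a brake on NF-kB, lower (5.40 and 3.00; -0.85). Of 6 interferon genes Ifitm2 was called higher (0.73) and was at -0.05 without the mixed droplets, when Ifi27l2a was called lower (-0.83). Il10, Il12b, Nos2, Csf3 and Arg1 had 0 UMIs in AMs of both libraries. Of 5 class II genes and 12 class I genes of antigen presentation none was called, at medians of -0.11 and -0.16.

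The smaller lists are also read against the 5.72% called of all genes and the all-gene median of 0.07. Among them, alternative activation gave Fn1, fibronectin (5.32 and 12.3 CP100k; log2 1.21, interval 0.78 to 1.65), and Flt1 (5.49 and 8.51; 0.63) of 6 genes. Both lay below their free RNA level in TCM, at 17.4 CP100k for each. Of 14 glucocorticoid genes Fkbp5 and Per1 (4.22 and 6.70; 0.67) were called, at a median of 0.21, and Per1 was also the 1 of 3 clock genes called. None was called of 5 eicosanoid, 10 heat shock, 17 immediate early and 12 glycolysis genes, at medians of 0.12, -0.08, 0.31 and 0.13. Without the mixed droplets the immediate early median was 0.16 and Tbxas1, thromboxane synthase, of the eicosanoid list was called higher (0.63).

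**Figure D5:**
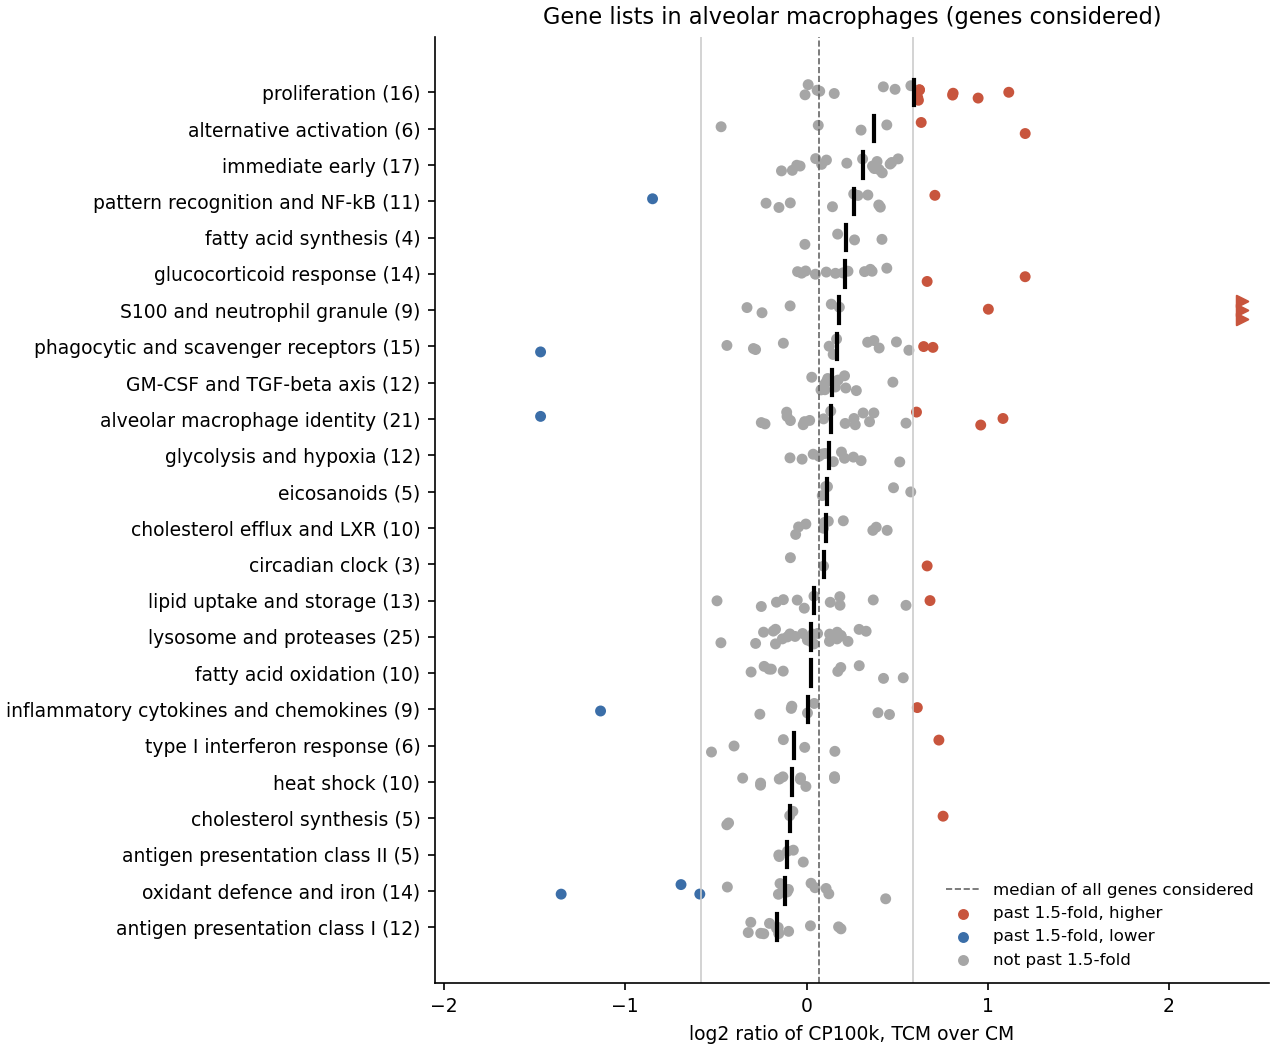
Log2 ratio of CP100k, TCM over CM, for each gene with at least 100 UMIs (points) in each list (rows, with the number of genes), in AMs. The dashed line is the median of all 3498 genes (0.07). Proliferation genes sit to the right with a median of 0.59, and points drawn at the right edge are the neutrophil genes S100a8, S100a9 and Retnlg.

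Genes of other cells differed between the libraries too. The 10 neutrophil genes summed to 11.6 CP100k in CM and 278 in TCM AMs, and to 33.4 without the mixed droplets. S100a8, an alarmin of neutrophils, had 66 and 1434 UMIs, a log2 ratio of 4.17 that was 1.39 without those droplets, and T cells of the same libraries, which do not make it, carried it at 10.4 and 174 CP100k. Retnlg was listed with 0 UMIs in CM and 225 in TCM AMs. The 10 AT2 genes summed to 64.3 and 187 CP100k, and to 99.6 without the mixed droplets, with Sftpc at log2 1.78 and 0.72. The 12 interstitial macrophage genes summed to 3.80 and 11.4, and to 5.94 without. Fibroblast genes went the other way, with the 10 summing to 43.7 in CM and 15.3 in TCM and Inmt at log2 -2.42. Monocyte genes summed to 23.1 and 32.6, with Fn1 among them, endothelial genes to 13.4 and 18.6, AT1 genes to 19.3 and 14.4, dendritic cell genes to 2.36 and 0.488, B cell genes to 1.94 and 0.837, T and NK cell genes to 4.81 and 2.93, and erythroid genes to 2.79 and 0.209. Folr2, Flt3, Siglech, Cd209a, Xcr1, Itgae and Alas2 had 0 UMIs in AMs. The part of these RNAs in the results on AMs was not tested beyond the values given without the mixed droplets.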

How the data were processed

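Lungs were made into single cell suspensions, converted to libraries with the Chromium Single Cell 5′ kit and sequenced on a NovaSeq system. The authors mapped reads to mm10 (GRCm38.p6) with Cell Ranger (the file headers name version 4) and, per the submitters' processing notes, used Seurat. The deposited files hold UMI counts per gene and barcode, not normalized, for 32286 features and 737280 barcodes, empty droplets included. The rule for AMs was applied to these counts, UMIs were summed per library, and log2 ratios of CP100k were given exact conditional binomial intervals. The members and gene lists were chosen with earlier results of these data known. Genes were named as the 12 highest and 12 lowest by the interval bound nearest to 0 (at least 100 UMIs, at or above free RNA, leaving out rule, immunoglobulin, mitochondrial and ribosomal protein genes), and in each list the 2 with most UMIs and the 2 with the largest log2 ratio; other genes called within a list were named after their values were seen. Free RNA was read from droplets of at most 50 UMIs. Doublet scores came from Scrublet in scanpy 1.11.5. Scripts used Python 3.11.15, numpy 2.4.6, scipy 1.17.1, pandas 2.3.3 and Biopython 1.88. Ratios, intervals and calls were tested on counts simulated from the summed UMIs. The simulation had no spread between cells, so it does not cover genes held by few cells. Gene spans are from GENCODE release 21 for mouse and promoter windows from RefSeq, both on GRCm38.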

Additional observations from a re-analysis of the deposited data

How the results depend on the processing

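No paired analysis was possible because each condition is 1 library, and for the same reason no library could be left out. The ratio of AM shares, 1.30, was 1.55 with a marker sum of at least 8 and 1.05 with Ptprc cells as the denominator. The 163 genes called higher were 61 after removal of cells with 5 or more UMIs of the 25 proliferation genes, which took most cells and left fewer genes to consider, 30 after thinning, 108 after centring on the median, 321 and 50 with a minimum of 50 and 200 UMIs, and 520 with no minimum. The 37 called lower were 63 with a mean over cells, 6 after thinning, 75 and 12 with those minimums and 234 with none. The removal by proliferation genes took 155 of 240 CM and 200 of 302 TCM cells. Those taken were deeper, at medians of 6015 and 5151 UMIs against 2018 and 2714. The list holds H2afz and Tubb5, which resting cells also make, so this removal does not single out dividing cells. It is named the list cut below. Changes of sign were followed only for named genes, of which 43 were among the 163 and 37 called. Of these 43, Mki67 (-0.25) changed sign without cells at 5 or more mitosis UMIs. Esd (0.13), Fn1 (-0.94) and Ramp2 (-0.88) did so after the list cut, and Ramp2 (-0.00654) after thinning. Ifitm2 (-0.046) did so without mixed droplets, and Il1b (-0.093) without them at a marker sum of at least 8. Of 72 named genes not called, 32 changed sign under some alternative. Among them Chil3 (-0.11) was at 0.51 after the list cut, 0.16 after thinning and 0.015 with a mean over cells. That mean took Prdx1 (-0.40), Sod2 (-0.44), Esd (-0.39) and Clec4e (-0.51) inside 1.5-fold, and thinning Runx1 (0.57), Top2a (0.50), Ms4a8a (0.56), Oga (0.47), Cxcl3 (-0.38), Esd (-0.41), Prdx1 (-0.53) and Sod2 (-0.38). After the list cut Tppp3 (0.49), Marco (-0.45) and Sod2 (-0.21) were inside 1.5-fold. Sod2 was also inside it without cells at 5 or more mitosis UMIs (-0.56). Prdx1 was inside it at a mitochondrial maximum of 5% (-0.57) and with free RNA subtracted (-0.58). Of 484 list medians under the alternatives, 451 moved by less than the counting interval of a typical member. The proliferation median of 0.59 was -0.06 without cells at 5 or more mitosis UMIs and -0.32 after the list cut, which is made on these genes. The oxidant and iron median of -0.12 was -0.043 without cells rich in Hmox1. Cuts on mixed droplets, mitosis genes and Hmox1 were chosen after seeing the data. Depth limits what can be said of genes under 100 UMIs, and with 1 library a condition no value has a replicate check.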
